A study of Mus musculus with 26 samples.

Results

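Lacrimal glands of mice aged 16 weeks, when autoimmunity is said to become clinical, were compared with glands of mice aged 12 weeks, when leukocytes are said to enter the gland. Arrays were chosen by the age in their titles, which gave 5 arrays at 16 weeks and 6 at 12 weeks, 11 of the 26 arrays of the series. All were labelled male C57BL/6.NOD-Aec1Aec2, a C57BL/6 strain that carries the Idd3 region of chromosome 3 (Aec1) and the Idd5 region of chromosome 1 (Aec2) of the NOD mouse and develops a disease like Sjögren's syndrome. Mice of both ages carry both regions and mice without them are not analysed here. Effects of age, of disease and of anything else that differed between the ages, such as the time of collection, cannot be told apart. The other arrays, of mice aged 4 (n = 4), 8 (n = 6) and 20 weeks (n = 5), entered the estimate of each gene's spread, and their levels are given for a few genes without a test.

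Acinar cells of the lacrimal gland make the water, salts and proteins of tears, and their endoplasmic reticulum folds these proteins for export. Nerves drive secretion through receptors that raise calcium or cyclic AMP in the cell. In Sjögren's syndrome lymphocytes gather in tear and salivary glands, autoantibodies appear and the glands dry out. Levels below are the deposited log2 values, on which 1 unit is a 2-fold difference, and each gene was read by the probe set with its highest mean level. In bulk tissue fewer cells of a type and less RNA per cell cannot be told apart. Errors of means are SDs and errors of changes are SEs of the fit.

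One array stood apart. On 16 weeks replicate 4 the SD of all log2 values was 1.68, against 1.99 to 2.13 on the other arrays of 16 weeks and 1.95 to 2.27 at 12 weeks. Acinar genes were low there. Bhlha15 (Mist1), a transcription factor of secretory cells, was at 6.08 on that array, 11.40 to 11.70 on the other arrays of 16 weeks and 12.00 to 12.82 at 12 weeks. The water channel Aqp5 was at 4.90 there, at 10.59 to 11.12 on the other arrays of 16 weeks and at 10.92 to 11.42 at 12 weeks. Of 31 lacrimal gland product genes with a probe set 24 were kept, and their mean per array was 8.58 to 10.70 at 16 weeks and 10.59 to 11.26 at 12 weeks. The results are therefore given with and without that array.

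Other array measures also varied, with no difference between the ages past an adjusted p of 0.05, as the plot of 4 array measures shows. For the actin controls the 3' minus 5' difference, a measure that increases with RNA decay, was 4.56 ± 1.24 at 16 weeks (n = 5) and 3.69 ± 0.52 at 12 weeks (n = 6). The mean of 11 of 12 salivary gland genes was 6.93 to 10.24 at 16 weeks and 8.86 to 11.74 at 12 weeks, and that of 10 of 16 adipocyte genes was 4.40 to 7.64 at 16 weeks and 4.42 to 6.75 at 12 weeks. Adipoq, the adipocyte hormone adiponectin and chosen here after its values were seen, was at 7.57 and 8.32 on 16 weeks replicates 1 and 2 and at 2.14 to 2.33 on replicates 3, 4 and 5, and at 12 weeks it was highest on replicate 1, at 7.95. Of 7 such measures the salivary gland mean differed most, at -2.01 for 16 minus 12 weeks (exact two-sided permutation test over 462 splits, p = 0.0238, adjusted p = 0.167). The spread of the array had p = 0.0671 (adjusted p = 0.235) and the actin difference p = 0.143 (adjusted p = 0.333) in the same exact test, whose smallest possible p was 0.00216. Means of skeletal muscle genes (6 of 16 kept) were 3.61 to 3.93 at 16 weeks and 3.30 to 4.08 at 12 weeks, and 5 of the 6 were near background at both ages. Skin and Harderian gland genes (8 of 16 kept) averaged 3.70 to 4.93 at 16 weeks and 4.65 to 5.08 at 12 weeks.

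**Figure D1:**
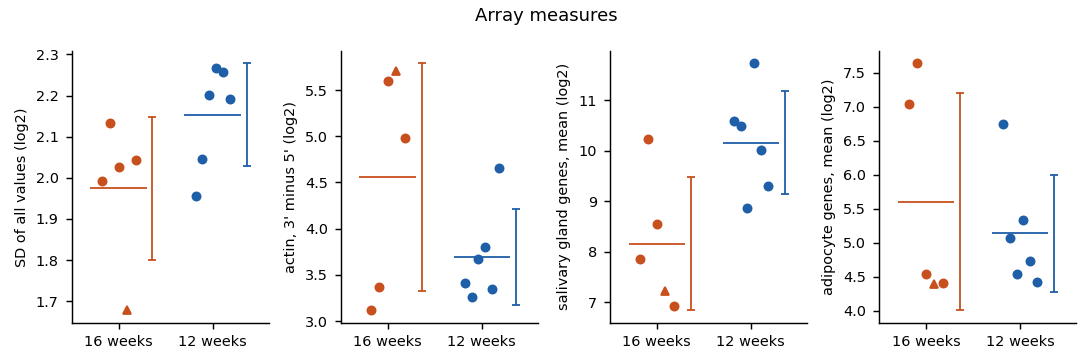
Each point is 1 array, with 16 weeks (n = 5, orange) left of 12 weeks (n = 6, blue), lines mark means and bars are ± 1 SD. The panels give the SD of all log2 values, the actin 3' minus 5' difference, and the mean log2 level of salivary gland and of adipocyte genes. The triangle is 16 weeks replicate 4, the lowest in spread at 1.68 and the highest in the actin difference at 5.71.

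Of 12376 genes tested, 369 differed between the ages (2.98%, limma, adjusted p under 0.05 over all genes). At 16 weeks 44 of them were higher (0.356%) and 325 lower (2.63%), so 11.9% of the calls were increases. At an unadjusted p under 0.05 there were 2583 genes, 664 higher and 1919 lower. Of the called genes 277 differed by at least 2-fold, 18 upwards and 259 downwards. The arrays of the ages did not overlap in 25 of the called increases and 180 of the called decreases, where over all genes 0.848% lay higher on all arrays of 16 weeks and 3.66% lower. Changes from or to a mean under 4.04, which is within 1 unit of the typical array median of 3.04 and is called near background below, are lower bounds. This touched 21 called increases at their 12 week level and 84 called decreases at their 16 week level.

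The count and its direction depended on single arrays and on the scaling. Without 16 weeks replicate 4, 123 genes were called (0.994%), 37 higher (0.299%) and 86 lower (0.695%), and 112 of them were among the 369. That array held the lowest level of its age for 146 of the 325 decreased genes (44.9%), against 39.3% of all genes tested. Replicate 3 of 16 weeks held it for 24% of the decreases, against 11.4% of all genes, and replicate 1 for 16%, against 9.92%. Increases made up 52.9% of 512 calls after quantile normalization, 63.9% of 756 calls with array spread as a covariate and 24.1% of 116 calls with the actin difference as a covariate. With the adipocyte and salivary gland means as covariates 4 genes were called, Per2, Abtb2 and Thap1 upwards and Txn2 downwards. The median size of the 369 changes was 1.11 in that fit, in place of 1.32, and their median SE was 0.363, in place of 0.316. In each of these fits all 369 genes kept the sign of their change. When the 11 arrays were left out 1 at a time, 57 of the 369 genes were called in every refit, 9 higher and 48 lower, and such genes are pointed out below. Over all genes the median change was -0.04, and 0.02 without 16 weeks replicate 4.

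**Figure D2:**
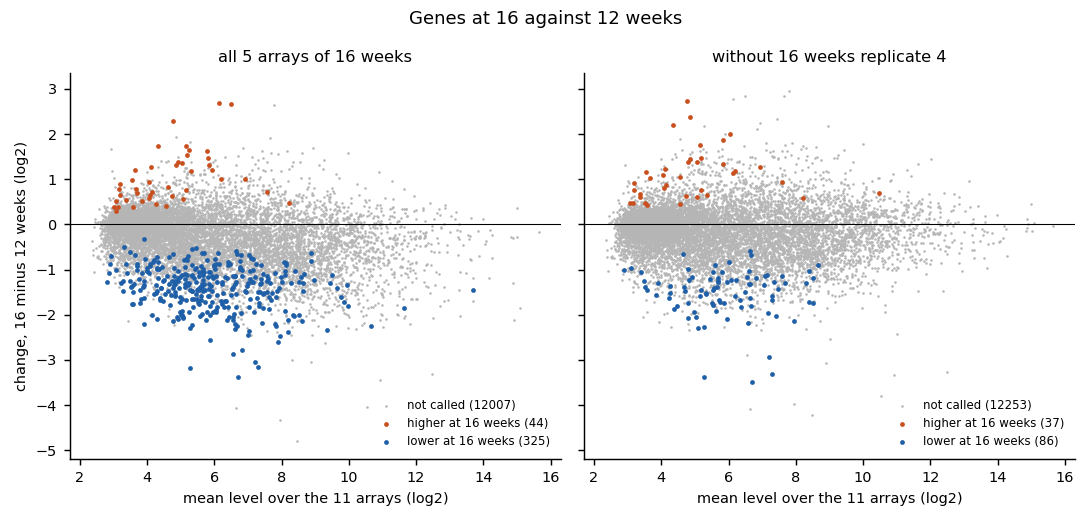
Each point is 1 of 12376 genes, with its mean level over the 11 arrays on the x axis and its change, 16 minus 12 weeks, on the y axis (both log2). Called genes are orange where higher at 16 weeks and blue where lower, 44 and 325 with all arrays (left) and 37 and 86 without 16 weeks replicate 4 (right).

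The leukocyte marker lists gave no call. None of the kept members of the lists of T cells (8), B cells (8), plasma cells and antibody chains (8), cytotoxic and natural killer cells (3), macrophages (18), dendritic cells (8), neutrophils and mast cells (5) or pan-leukocyte genes (13) was called. Of all genes 2.98% were called, and for lists this small no call is near that share. T cell genes were near background, with Cd3e, a subunit of the T cell receptor complex, at 3.12 ± 0.18 at 16 weeks and 3.05 ± 0.09 at 12 weeks, and the T helper receptor Cd4 at 3.92 ± 0.03 at 16 weeks and 3.67 ± 0.51 at 12 weeks. Igha, the constant region of IgA, was at 8.84 to 11.95 at 16 weeks and 10.95 to 11.94 at 12 weeks, a change of -0.65 ± 0.56 (adjusted p = 0.484) and of -0.12 without 16 weeks replicate 4. The plasma cell list had a median change of -0.65 with that array and 0.22 without it. Pan-leukocyte genes had a median of -0.46 with 11 of 13 negative, and -0.30 with 10 negative without that array. B cell genes had -0.23 with 7 of 8 negative, and -0.21 without that array. Array means of B cell genes were 3.62 to 3.89 at 16 weeks and 3.63 to 5.04 at 12 weeks. Those of pan-leukocyte genes were 4.53 to 5.66 at 16 weeks and 5.01 to 7.39 at 12 weeks. T cell, dendritic cell and neutrophil lists also had their highest array mean at 12 weeks. Plasma cell, cytotoxic and macrophage lists had it at 16 weeks. C1qa, a complement subunit made by macrophages, changed by -1.10 ± 0.63 (adjusted p = 0.315).

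The lists of antigen presentation and interferon genes gave no call either. Outside the lists, and chosen after their values were seen, the MHC class I gene H2-Q10 rose by 0.39 ± 0.11 (adjusted p = 0.0472) and Sp100, a nuclear body protein induced by interferon, fell by 0.91 ± 0.18 (0.0127). All 7 kept MHC class II genes had negative changes, with a median of -1.16, or of -0.57 without 16 weeks replicate 4, where 5 of 7 were negative. Cd74, the invariant chain that guides class II molecules, was at 10.24, 11.20, 8.91, 5.49 and 9.99 on the arrays of 16 weeks and between 11.08 and 12.08 (median 11.30) at 12 weeks. Its change was -2.24 ± 0.79 (adjusted p = 0.113), and -1.32 (0.317) without replicate 4, its lowest array. The class II chain H2-Ab1 changed by -1.37 ± 0.48 (0.107). Of 19 type I interferon genes 11 had positive changes (median 0.13), and of 13 interferon gamma genes 9 had (median 0.28). Ifit1, which binds foreign RNA, was at 4.12, 3.98, 2.49, 5.26 and 3.33 at 16 weeks and at 2.01 to 2.29 (median 2.19) at 12 weeks. The arrays did not overlap, and the change of 1.67 ± 0.51 did not pass (adjusted p = 0.0699), with both means near background. Irf9, part of the factor that switches on interferon genes, was higher on all arrays of 16 weeks (6.64 to 7.76) than at 12 weeks (5.63 to 6.5), with a change of 0.99 ± 0.36 (0.12).

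In each of 3 other lists 1 gene fell, 1 of 21 cytokines and receptors (4.76%), 1 of 20 Toll-like receptor and NF-kappaB genes (5%) and 1 of 25 immediate early genes (4%), shares near the 2.63% of all genes called lower. Il10rb, a receptor chain for interleukin-10 and related cytokines, averaged 6.30 ± 0.29 at 16 weeks and 7.60 ± 0.53 at 12 weeks, lower on all arrays (-1.30 ± 0.35, adjusted p = 0.0478). Relb, an NF-kappaB subunit of lymphoid tissue, averaged 3.08 ± 0.30 at 16 weeks and 4.30 ± 0.79 at 12 weeks (-1.22 ± 0.33, 0.0472). Zfp36 (tristetraprolin), which speeds the decay of cytokine mRNAs, averaged 3.95 ± 0.58 at 16 weeks and 6.02 ± 1.03 at 12 weeks (-2.07 ± 0.48, 0.0254). Relb and Zfp36 were near background at 16 weeks, so their changes are lower bounds. Zfp36 is the gene of the immediate early list. All 3 lost their calls without 16 weeks replicate 4, with changes of -1.34 for Il10rb (adjusted p = 0.0894), -1.16 for Relb (0.105) and -1.95 for Zfp36 (0.065). Candidate genes of the Idd regions were near background. Il2 averaged 3.38 ± 0.10 at 16 weeks and 3.32 ± 0.13 at 12 weeks, Ctla4 3.31 ± 0.04 at 16 weeks and 3.23 ± 0.09 at 12 weeks, and Slc11a1 3.02 ± 0.07 at 16 weeks and 3.02 ± 0.15 at 12 weeks. Il21, Icos and the muscarinic receptor Chrm3 did not pass the filter on low values, with levels of 2.75 to 2.82, 2.83 to 2.98 and 2.54 to 2.62 at 16 weeks, against 2.59 to 2.79, 2.63 to 2.86 and 2.47 to 2.60 at 12 weeks. The autoantigen gene Trim21 (Ro52), also near background, changed by 0.23 ± 0.22 (adjusted p = 0.53).

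Some genes of the cell cycle fell. Of 32 kept genes of the cell cycle and DNA replication list 6 were called, all lower at 16 weeks (18.8% against 2.63% of all genes), and 26 were not called. Like the other lists, it was chosen with earlier results of these data known, so its share is only a description. Of all 32, 22 had negative and 10 positive changes, and the median change was -0.78, against -0.04 over all genes. Without 16 weeks replicate 4, 2 of the 32 were called, against 0.695% of all genes called lower. Many of the members, though not Cdk4 and Ccnd3, are transcribed around S phase and mitosis in dividing cells. Several promoters of such genes hold the cell cycle genes homology region, TTTGAA in its core form, which keeps them silent in resting cells. In the 150 bases before the start site, 3 of the 7 called genes described next hold TTTGAA on either strand, against 9.07% of 32851 mouse start sites. The windows of Cdt1, Cdk4, Ccnd3 and Mcm7 hold no match. The windows with a match are shown from RefSeq (GRCm38.p6), each on the minus strand, with the match in capitals.
Mki67, chr7:135716380-135716529: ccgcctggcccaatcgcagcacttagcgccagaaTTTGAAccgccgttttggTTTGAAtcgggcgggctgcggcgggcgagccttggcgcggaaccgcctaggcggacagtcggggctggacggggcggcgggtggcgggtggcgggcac
Cdc20, chr4:118437344-118437493: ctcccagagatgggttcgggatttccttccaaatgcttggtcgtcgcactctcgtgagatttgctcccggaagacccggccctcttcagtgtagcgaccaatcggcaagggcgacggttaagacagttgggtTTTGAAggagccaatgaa
Cdk1, chr10:69352913-69353062: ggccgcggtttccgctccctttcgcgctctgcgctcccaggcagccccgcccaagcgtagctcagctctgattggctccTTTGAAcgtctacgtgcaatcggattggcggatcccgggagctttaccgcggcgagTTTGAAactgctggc
Counted from the start site, the matches begin at -116 and -98 in Mki67, at -18 in Cdc20, and at -71 and -15 in Cdk1. A match is a description of the letters, and whether a factor binds there was not measured.

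Mki67, the nuclear protein Ki-67 of dividing cells, was at 4.24, 5.15, 4.77, 5.07 and 5.68 on the arrays of 16 weeks and between 6.40 and 9.70 (median 7.30) at 12 weeks. All arrays of 16 weeks lay below all of 12 weeks. The change was -2.86 ± 0.68, or 7.26-fold lower (limma, adjusted p = 0.03), and -2.88 (0.0592) without 16 weeks replicate 4. Cdt1, which licenses replication origins and was named for the size of its change, was at 2.12, 4.74, 2.35, 4.34 and 4.15 at 16 weeks and between 5.42 and 8.05 (median 6.69) at 12 weeks. It also did not overlap and fell by 3.17 ± 0.62, at least 9.02-fold (adjusted p = 0.0121), and by 3.37 (0.0221) without replicate 4. Cdk4, the kinase that carries cells into S phase, was at 6.38, 6.34, 5.76, 6.36 and 6.10 at 16 weeks and between 6.80 and 7.94 (median 7.32) at 12 weeks. Its partner cyclin D3, Ccnd3, was at 6.43, 6.73, 6.02, 6.80 and 6.43 at 16 weeks and between 7.12 and 9.11 (median 8.00) at 12 weeks. Neither overlapped. Cdk4 fell by 1.14 ± 0.23 (0.013) and Ccnd3 by 1.5 ± 0.28 (0.0121). Cdt1, Cdk4 and Ccnd3 were called in all 11 refits that left out 1 array. With quantile normalization Cdk4 was at -0.58 (adjusted p = 0.317) and Ccnd3 at -0.92 (0.161). Of the 3 probe sets of Ccnd3, 1 had a negative change, and of those of Cdt1, 2 did.

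Mitotic and replication genes followed with less certain calls. The helicase subunit Mcm7 averaged 4.47 ± 1.05 at 16 weeks and 7.04 ± 1.16 at 12 weeks (-2.57 ± 0.66, adjusted p = 0.0416), lower on all arrays. Cdc20, which activates the ubiquitin ligase that starts anaphase, averaged 5.44 ± 0.84 at 16 weeks and 7.69 ± 0.76 at 12 weeks (-2.25 ± 0.54, 0.0301), also without overlap. The mitotic kinase Cdk1 averaged 3.06 ± 0.34 at 16 weeks and 5.08 ± 1.20 at 12 weeks (-2.01 ± 0.53, 0.0457), a lower bound since it was near background at 16 weeks. All 3 lost their calls without 16 weeks replicate 4 (adjusted p = 0.107, 0.0759 and 0.0985). Of the 11 refits without 1 array Mcm7 kept its call in 4, Cdc20 in 5, Cdk1 in 3 and Mki67 in 5. Each had its highest adjusted p without 12 weeks replicate 4, at 0.112 for Mcm7, 0.0868 for Cdc20, 0.119 for Cdk1 and 0.0849 for Mki67. Without 16 weeks replicate 4 only Cdk4 and Ccnd3 of the list were called, with a list median of -0.68. Cdca8 of the chromosome passenger complex, Birc5 (survivin) and the helicase subunit Mcm2 had changes of -2.0 ± 0.59, -1.97 ± 0.60 and -1.01 ± 0.31 that did not pass (adjusted p = 0.0643, 0.0708 and 0.0758). At 8 weeks Mki67 averaged 6.61 ± 1.26 and Cdt1 4.98 ± 0.88, and at 20 weeks Mki67 averaged 5.07 ± 0.30 and Cdt1 3.33 ± 0.83. With the actin difference as a covariate Mki67, Cdt1, Cdk4, Ccnd3 and Cdc20 passed (0.032, 0.0258, 0.0326, 0.0258 and 0.0461), and Mcm7 and Cdk1 did not (0.0795 and 0.0781).

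**Figure D3:**
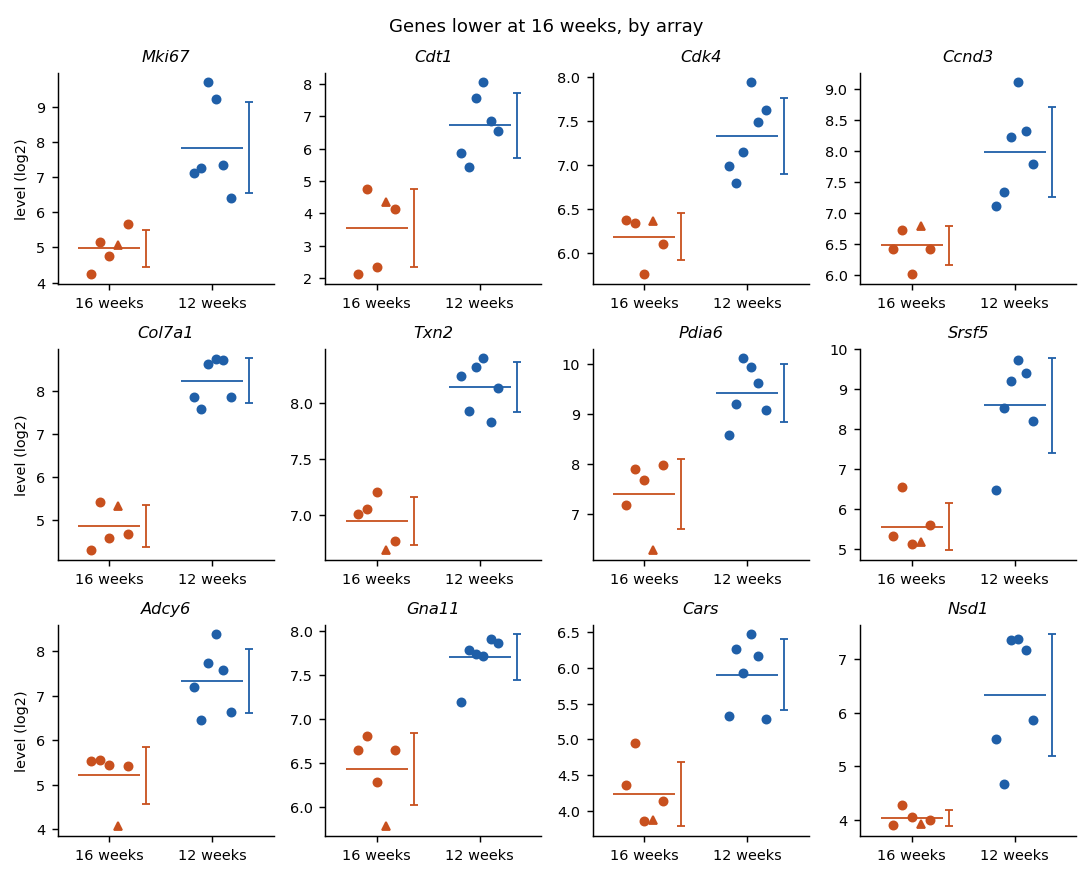
Log2 levels of 12 genes that fell, 1 point per array, 16 weeks (n = 5, orange) left of 12 weeks (n = 6, blue), with means as lines, bars of ± 1 SD and 16 weeks replicate 4 as a triangle. Apart from Srsf5, where 16 weeks replicate 2 (6.55) and 12 weeks replicate 1 (6.47) cross, the arrays of the ages do not overlap in these genes.

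Genes for making and handling proteins had lower medians, with few calls. Well-expressed genes, here the 8030 above the 75th percentile on at least 4 arrays, also had a lower median. It was -0.27 in a refit on them, with 456 called lower. Aminoacyl-tRNA synthetases, which load amino acids on tRNAs, had 2 calls among 20 genes, both lower (10%, against 2.63% of all genes), and 1 without 16 weeks replicate 4. The list median was -0.77. Cars, for cysteine, was at 4.36, 4.94, 3.85, 3.87 and 4.14 at 16 weeks and between 5.29 and 6.47 (median 6.04) at 12 weeks. It lay lower on all arrays and fell by 1.68 ± 0.35, or 3.19-fold (adjusted p = 0.0166, and 0.0435 without 16 weeks replicate 4). It lost its call without 16 weeks replicate 3 (0.0537) and 12 weeks replicate 4 (0.0527). Averaged over its probe sets Cars changed by -0.82. Kars, for lysine, was at 4.47, 6.30, 6.29, 3.09 and 6.36 at 16 weeks and between 7.0 and 9.07 (median 8.03) at 12 weeks, again without overlap. It fell by 2.77 ± 0.62 (0.0225), and by 2.22 (0.0651) without replicate 4, its lowest array. Tars, for threonine, changed by -1.77 ± 0.51 (0.0579). The translation factor Eif5b, which joins ribosomal subunits, fell by 2.37 ± 0.58 (0.0323), and by 1.66 (0.0763) without replicate 4, where it was at 4.04 against 7.20 to 7.93 on the other arrays of 16 weeks. None of 31 ribosomal protein genes was called (median -0.44, and -0.21 without replicate 4).

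In the endoplasmic reticulum 2 of 30 chaperone and stress genes fell (6.67%, against 2.63% of all genes). In the separate refit on the 8030 well-expressed genes 456 were called lower, with its own adjustment of p. The list median was -0.75, and -0.29 without 16 weeks replicate 4. Pdia6, a disulfide isomerase that shapes secretory proteins, was at 7.19, 7.90, 7.68, 6.28 and 7.97 at 16 weeks and between 8.58 and 10.11 (median 9.41) at 12 weeks. It did not overlap, fell by 2.01 ± 0.39, or 4.04-fold (adjusted p = 0.0121, and 0.031 without replicate 4), and was called in all 11 refits, though the other of its 2 probe sets changed by 0.05. Dnajb11, a co-chaperone of BiP, fell by 1.37 ± 0.37 (0.0478), and by 0.95 (0.126) without replicate 4. The calcium-binding chaperone Calr was at 8.51 on that array, against 12.61 to 12.87 on the other arrays of 16 weeks and 13.33 to 13.83 at 12 weeks. Its change of -1.70 ± 0.59 did not pass (0.106). Ddost, a subunit of the enzyme that attaches N-glycans, fell by 2.12 ± 0.58 (0.0478), the only call among 45 genes of transport between endoplasmic reticulum and Golgi, and by 1.84 (0.127) without replicate 4. Of 30 proteasome genes 3 fell (10%, against 2.63% of all genes and 456 of the 8030 in the refit on well-expressed genes). They were the regulatory subunits Psmd4 (-1.30 ± 0.32, 0.0324), Psmd13 (-1.72 ± 0.44, 0.0386) and Psmd2 (-1.95 ± 0.52, 0.0472). All 3 missed the threshold without replicate 4 (0.0855, 0.0999 and 0.0794), and the list median was then -0.46, in place of -0.98. Slc35b2, which brings the sulphate donor into the Golgi, was at 5.61, 7.0, 4.29, 6.17 and 4.82 at 16 weeks and between 7.30 and 9.44 (median 8.91) at 12 weeks. It fell by 3.16 ± 0.66, or 8.92-fold (0.0166, and 0.0296 without replicate 4), and lost its call without 16 weeks replicate 3 (0.0566). Averaged over its probe sets Slc35b2 changed by -1.65.

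The list of splicing factors had 2 calls among 29 genes, both lower (6.9%, against 2.63% of all genes and 456 of the 8030 in the refit on well-expressed genes). Other RNA processing genes are not covered by the list. Srsf5, a serine- and arginine-rich splicing factor, was at 5.32, 6.55, 5.12, 5.17 and 5.59 at 16 weeks and between 6.47 and 9.73 (median 8.87) at 12 weeks, with 1 array of each age crossing. It fell by 3.04 ± 0.53, or 8.22-fold (adjusted p = 0.0118, and 0.0221 without 16 weeks replicate 4), and was called in all 11 refits. The long noncoding RNA Neat1, the scaffold of nuclear paraspeckles, was at 9.32, 9.97, 10.17, 7.47 and 10.14 at 16 weeks and between 11.33 and 12.17 (median 11.68) at 12 weeks. It did not overlap and fell by 2.26 ± 0.52 (0.0254), and by 1.77 (0.0719) without replicate 4. The other of its 2 probe sets changed by 0.09. Nktr, a cyclophilin with a serine- and arginine-rich tail, fell by 2.35 ± 0.54 (0.0258), and by 2.19 (0.0693) without replicate 4. The median change of the splicing list was -0.64.

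Among receptors and signalling proteins of secretion 3 of 26 genes fell (11.5%, against 2.63% of all genes), with a list median of -0.07, close to that of all genes. Adcy6, an adenylate cyclase that makes cyclic AMP, was at 5.54, 5.57, 5.44, 4.07 and 5.43 at 16 weeks and between 6.46 and 8.38 (median 7.39) at 12 weeks. Gna11, a G protein subunit of the Gq family that turns receptor binding into calcium signals, was at 6.64, 6.80, 6.29, 5.78 and 6.65 at 16 weeks and between 7.20 and 7.92 (median 7.77) at 12 weeks. Neither overlapped between the ages. Adcy6 fell by 2.12 ± 0.39, or 4.35-fold (adjusted p = 0.0118, and 0.0295 without 16 weeks replicate 4). Gna11 fell by 1.28 ± 0.24, or 2.42-fold (0.0121, and 0.0296). Both were called in all 11 refits and with quantile normalization (-1.72 and -0.73), and neither was called with the tissue means as covariates (-1.83 and -1.08, adjusted p = 0.18 and 0.21). P2rx7, an ATP-gated channel, fell by 0.98 ± 0.25 (0.0416, and 0.0894 without replicate 4) and was near background at 16 weeks. The calcium channel Itpr3 and the G protein subunit Gnas changed by -1.92 ± 0.57 (0.0659) and -1.74 ± 0.56 (0.0826), or -1.05 and -1.01 without replicate 4. None of 22 water and ion transport genes, 26 exocytosis genes, 24 lacrimal gland products or 19 acinar and gland transcription factors was called. Aqp5 changed by -1.67 ± 0.77 (0.217), and by -0.49 (0.531) without replicate 4.

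Clock genes held 3 of the 44 called increases, 15.8% of the list's 19 genes against 0.356% of all genes. The list was chosen with earlier results of these data known, so its share is only a description. The circadian clock runs on Clock and Bmal1 (here Arntl), which switch on the Per and Cry genes through E-boxes, and Per and Cry proteins then shut Clock and Bmal1 off. Per2 was at 5.82, 6.44, 5.80, 5.02 and 4.76 at 16 weeks and between 3.92 and 4.62 (median 4.31) at 12 weeks. All arrays of 16 weeks lay above all of 12 weeks. It rose by 1.31 ± 0.24, or 2.47-fold (limma, adjusted p = 0.0118, and 0.0102 without 16 weeks replicate 4), and was called in each of 26 alternative fits. Its 3 probe sets did not agree in size, with changes of 0.01 to 1.31, and their mean changed by 0.45 (0.0109). Cry1 was at 6.81, 7.26, 6.84, 6.07 and 6.75 at 16 weeks and between 5.39 and 6.27 (median 5.69) at 12 weeks, with 16 weeks replicate 4 below the highest array of 12 weeks. It rose by 1.01 ± 0.25, or 2.02-fold (0.0319, and 0.0295 without replicate 4). Usp2, a ubiquitin protease whose mRNA cycles with the clock, was at 7.04, 8.70, 8.22, 7.28 and 8.50 at 16 weeks and between 3.06 and 6.5 (median 5.83) at 12 weeks, without overlap. It rose by 2.67 ± 0.67, or 6.38-fold (0.0364, and 0.0563 without replicate 4). Cry1 and Usp2 each kept their calls in 3 of 11 refits without 1 array, with adjusted p up to 0.0868 for Cry1 without 12 weeks replicate 4 and 0.0832 for Usp2 without 16 weeks replicate 3.

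The Cry1 promoter is shown because Cry1 is among the called clock genes and its window holds the E-box CACGTG, found on either strand in 4.3% of mouse start sites in the same 150 bases. The window lies on the minus strand (RefSeq, GRCm38.p6), and the capitals mark the E-box, which begins at -60 from the start site.
Cry1, chr10:85185055-85185204: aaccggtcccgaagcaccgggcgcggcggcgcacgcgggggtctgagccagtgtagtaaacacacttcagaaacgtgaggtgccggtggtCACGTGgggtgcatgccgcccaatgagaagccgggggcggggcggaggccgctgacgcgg
The windows of Usp2 and Dbp hold no CACGTG, which says only that these letters are not in those 150 bases. The set of start sites held none for Per2, so its promoter was not searched. The window of Cdk4, a gene called lower, holds 3 matches to CACGTG, and binding was not measured.

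Dbp, an activator that the clock switches on, was at 8.93, 10.04, 9.42, 7.94 and 9.78 at 16 weeks and between 4.26 and 9.02 (median 6.10) at 12 weeks. Its 12 week arrays were split, with 4 at 4.26 to 6.96 and replicates 5 and 6 at 8.99 and 9.02, and its change of 2.64 ± 0.75 did not pass (adjusted p = 0.0559). It passed with quantile normalization (3.10, 0.0044), with array spread as a covariate (3.51, 0.00197) and as the mean over its probe sets (2.05, 0.0418). Of the 19 genes of the list 11 had positive and 8 negative changes. Among those that did not pass, the kinase gene Csnk1d changed by 0.50 ± 0.26 (0.277). Nfil3, a repressor of the genes that Dbp drives, changed by -0.86 ± 0.35 (0.173), Arntl by -0.23 ± 0.10 (0.176), Clock by -1.03 ± 0.51 (0.253) and Rora, an activator of Arntl, by -0.52 ± 0.25 (0.235). On the arrays of 16 weeks Nfil3 lay at 3.18 to 3.26 and Arntl at 3.01 to 3.11, both near background. The list median was 0.04. In the order of ages 4, 8, 12, 16 and 20 weeks, Per2 averaged 4.6, 4.90, 4.26, 5.57 and 4.85, Usp2 averaged 7.95, 7.44, 5.28, 7.95 and 6.38, and Dbp averaged 9.09, 9.75, 6.58, 9.22 and 9.04. In Usp2 and Dbp 12 weeks was the low age, and in Per2 16 weeks was the high one. The titles do not give the time of day at which glands were taken, and its part in these changes was not tested.

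Of 18 heat shock chaperone genes 1 rose (5.56%, against 0.356% of all genes). Hspa1a, an inducible Hsp70, was at 5.89, 5.19, 6.73, 3.47 and 5.17 at 16 weeks and between 3.22 and 4.29 (median 3.39) at 12 weeks. Replicate 4 of 16 weeks lay among the arrays of 12 weeks and the other 4 above them all. It rose by 1.74 ± 0.46, at least 3.35-fold (adjusted p = 0.0433), and by 2.20 (0.0168) without that array, and missed the threshold without 9 of the 11 arrays in turn (up to 0.114 without 16 weeks replicate 3). Its near-identical copy Hspa1b changed by 1.58 ± 0.56 (0.115) and was higher on all arrays of 16 weeks (10.06 to 11.69) than at 12 weeks (8.71 to 9.68), and probe sets may read both. The small heat shock protein Cryab and the co-chaperone Dnaja1 also lay higher on all arrays of 16 weeks, with changes of 1.44 ± 0.42 (0.0607) and 1.32 ± 0.40 (0.0699). Averaged over all probe sets of each gene, the changes were 0.47 and 0.39, and in 1 alternative fit Dnaja1 was at -0.70. Hsph1, which recharges Hsp70, changed by 1.68 ± 0.60 (0.117). The calls depended on the scaling. Cryab, Dnaja1, Hspa1b and Hsph1 all passed with quantile normalization, with changes of 1.92, 1.81, 2.07 and 2.20, and with array spread as a covariate, with changes of 1.99, 1.94, 2.26 and 2.47. Hspa4l, an Hsp70 relative outside the list and chosen after its values were seen, rose by 0.79 ± 0.19 (0.0301). Of the 18 genes of the list 11 had positive and 7 negative changes, the lowest at -0.91. The list median was 0.25, and 0.84 without 16 weeks replicate 4, where 5 were negative. The Hspa1a promoter, shown for its match to the heat shock element core GAANNTTC, which 3.95% of mouse start sites hold in this window on either strand, lies on the minus strand, and the match in capitals begins at -104 from the start site (RefSeq, GRCm38.p6).
Hspa1a, chr17:34972157-34972306: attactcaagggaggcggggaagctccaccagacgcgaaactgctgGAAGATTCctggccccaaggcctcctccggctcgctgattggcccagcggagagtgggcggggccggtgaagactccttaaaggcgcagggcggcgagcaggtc

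**Figure D4:**
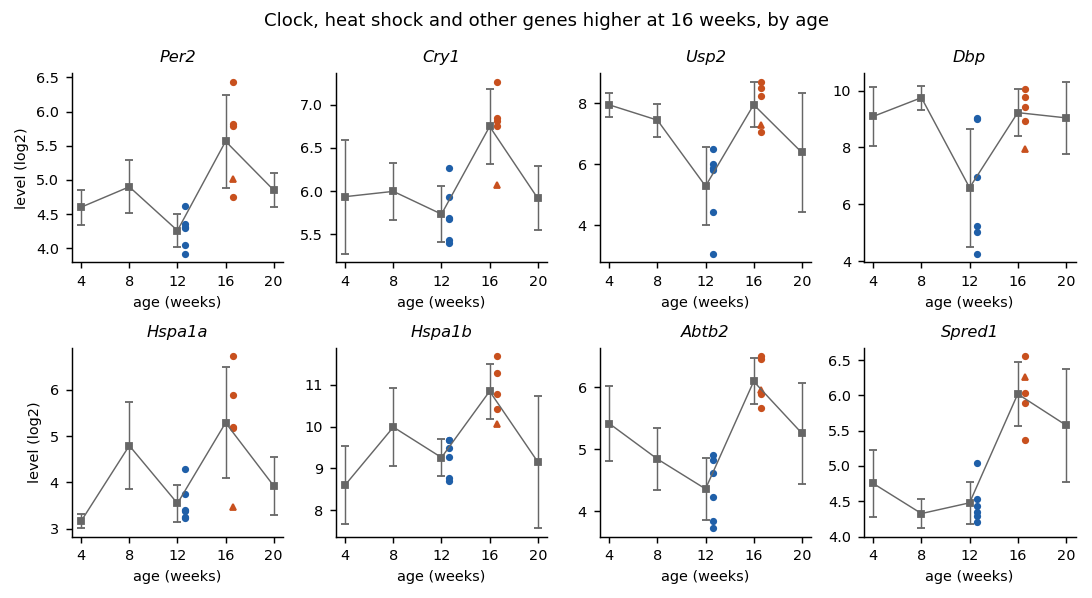
Log2 level against age in weeks for Per2, Cry1, Usp2, Dbp, Hspa1a, Hspa1b, Abtb2 and Spred1. Squares and bars are the mean ± 1 SD of each age (n = 4, 6, 6, 5 and 5 from 4 to 20 weeks), coloured points beside them are the single arrays of 12 weeks (blue) and 16 weeks (orange), and the triangle is 16 weeks replicate 4. The 16 week mean of Per2 (5.57) is above its other means (4.26 to 4.90), and that of Dbp (9.22) is within the range of the other ages but 12 weeks (9.04 to 9.75).

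Other increases came from genes of varied roles. Fam107a, an actin-binding protein induced by stress hormones, was at 8.24, 7.73, 7.38, 7.24 and 7.42 at 16 weeks and between 3.39 and 6.95 (median 4.93) at 12 weeks. It did not overlap and rose by 2.68 ± 0.71, or 6.4-fold (adjusted p = 0.046, and 0.0825 without 16 weeks replicate 4). Gsdme, a gasdermin that opens pores in dying cells, was at 7.60, 7.01, 5.57, 4.27 and 5.65 at 16 weeks and between 3.31 and 4.91 (median 3.52) at 12 weeks, and rose by 2.29 ± 0.55, at least 4.88-fold (0.0306, and 0.0221 without replicate 4). Adipoq was high on 16 weeks replicates 1 and 2, the highest arrays for Gsdme. On 12 weeks replicate 1 Adipoq was at 7.95 and Gsdme at 3.47. With the tissue means as covariates the change of Gsdme was 1.99 (0.258), and the part of adipose tissue in it was not tested further. Abtb2, a protein with ankyrin repeats and a BTB domain, was at 6.5, 6.46, 5.89, 5.95 and 5.66 at 16 weeks and between 3.73 and 4.91 (median 4.42) at 12 weeks. It rose by 1.73 ± 0.34, or 3.33-fold (0.0121), and like Per2 it was called in each of 26 alternative fits. Averaged over the probe sets of each gene, the changes were smaller, at 1.24 for Fam107a, 1.17 for Gsdme and 0.65 for Abtb2. Spred1, an inhibitor of Ras signalling, was at 6.03, 5.89, 6.56, 6.27 and 5.36 at 16 weeks and between 4.20 and 5.05 (median 4.39) at 12 weeks. It rose by 1.54 ± 0.28 (0.0118) and was called in all 11 refits, with 6 of its 8 probe sets positive and a mean over them of 0.21 (0.107).

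A pair of histone demethylase genes on the sex chromosomes rose together. The X-linked Kdm5c was at 6.53, 6.44, 6.72, 6.43 and 6.68 at 16 weeks and between 4.61 and 5.69 (median 5.24) at 12 weeks. Its Y-linked relative Kdm5d was at 4.99, 4.43, 5.41, 4.94 and 4.25 at 16 weeks and between 2.86 and 4.04 (median 3.66) at 12 weeks. Neither overlapped, and both were called in all 11 refits. Kdm5c rose by 1.31 ± 0.27 (adjusted p = 0.0166) and Kdm5d by at least 1.27 ± 0.25 (0.0127). As relatives they can share probes, and of the probe sets of Kdm5c, 7 of 9 were positive, over a range of -0.24 to 1.95. Zbtb21, a zinc finger repressor, rose by at least 1.21 ± 0.21 (0.0118), from a level near background at 12 weeks, and was called in all 11 refits. Averaged over all 3 probe sets it was at 0.28 (0.232). Thap1, a zinc finger factor chosen here after its values were seen, rose by 0.57 ± 0.08 (0.00416), though the other of its 2 probe sets changed by -0.03. Crebl2, a bZIP factor (1.64 ± 0.38, 0.0259), the ubiquitin protease Usp45 (1.62 ± 0.36, 0.0205) and the TFIIF subunit Gtf2f2 (1.38 ± 0.30, 0.0203) also rose. So did Timmdc1, an assembly factor of respiratory complex I (1.48 ± 0.36, 0.0324), Fam181b (1.36 ± 0.29, 0.0191) and the amino acid transporter Slc6a14 (1.21 ± 0.31, 0.0428). Without 16 weeks replicate 4 Fam181b and Timmdc1 remained called (0.037 and 0.0102), and Crebl2, Usp45, Gtf2f2 and Slc6a14 did not (0.0514, 0.0529, 0.0514 and 0.0816).

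The largest called decrease was that of Col7a1, the collagen of fibrils that anchor epithelium to the tissue beneath. It was at 4.29, 5.40, 4.57, 5.32 and 4.67 at 16 weeks and between 7.56 and 8.73 (median 8.25) at 12 weeks, a gap of over 2 units between the nearest arrays. It fell by 3.37 ± 0.52, or 10.4-fold (adjusted p = 0.00514, and 0.00891 without 16 weeks replicate 4), and was called in all 11 refits. It averaged 5.98 at 4 weeks, 6.98 ± 1.23 at 8 weeks and 4.54 ± 0.86 at 20 weeks. Of 33 collagen and matrix genes in the list, which does not hold Col7a1, 1 fell (3.03%, near the 2.63% of all genes), Fn1 (fibronectin), by 1.45 ± 0.35 (0.03, and 0.0529 without replicate 4). Collagen I chain Col1a2 was lower on all arrays of 16 weeks (5.05 to 6.22) than at 12 weeks (6.61 to 7.60), with a change of -1.19 ± 0.34 (0.0589). Tgfbr3 (betaglycan), a co-receptor of TGF-beta, fell by at least 1.54 ± 0.36 (0.0289), the protease Adam17, which sheds growth factors and cytokines, by at least 1.03 ± 0.26 (0.0402), and Igfbp2, which binds insulin-like growth factors, by 1.39 ± 0.37 (0.0472). These 3 lost their calls without replicate 4 (0.0529, 0.0858 and 0.107).

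In metabolism and redox defence the smallest p of all belonged to Txn2, the mitochondrial thioredoxin. It was at 7.01, 7.05, 7.20, 6.68 and 6.77 at 16 weeks and between 7.83 and 8.4 (median 8.19) at 12 weeks, without overlap. It fell by 1.20 ± 0.14, or 2.3-fold (adjusted p = 0.000256, and 0.00205 without 16 weeks replicate 4), with all 3 probe sets lower (-1.20 to -0.97). It was called in all 11 refits and with the tissue means as covariates (-1.11, 0.0191), and of 26 alternatives it lost its call with quantile normalization (-0.62, 0.314). It was the only one of 19 antioxidant genes called. Prdx3, the mitochondrial peroxiredoxin that Txn2 recharges, was at 3.90 on replicate 4 and at 7.03 to 8.65 on the other arrays of 16 weeks, and changed by -2.19 ± 0.62 (0.0559). Of 49 oxidative phosphorylation genes none was called and 43 had negative changes, with a median of -0.75, and of -0.29 without replicate 4. Me1 (malic enzyme), which makes NADPH for fatty acid synthesis, fell by 1.25 ± 0.31 (0.0357), and Acss1, which activates acetate in mitochondria, by 2.34 ± 0.63 (0.0472). The glutamine transporter Slc1a5 fell by 2.32 ± 0.52 (0.0219). Without replicate 4 these 3 were at -1.05, -1.48 and -2.17 (adjusted p = 0.104, 0.0935 and 0.0591).

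Further large decreases were in regulators of proteins and chromatin. The deubiquitinase Mindy2 was at 7.13, 7.69, 5.91, 5.22 and 7.01 at 16 weeks and between 8.12 and 9.84 (median 9.18) at 12 weeks, without overlap. It fell by 2.47 ± 0.46, or 5.55-fold (adjusted p = 0.0121, and 0.0296 without 16 weeks replicate 4). Nsd1, a histone H3 methyltransferase, was at 3.91, 4.28, 4.05, 3.92 and 3.99 at 16 weeks and between 4.66 and 7.37 (median 6.52) at 12 weeks, and fell by at least 2.29 ± 0.44 (0.0121). Mindy2 and Nsd1 were called in all 11 refits, but 3 of the 4 probe sets of Nsd1 were not lower. The X-linked Ogt, which adds GlcNAc to nuclear and cytosolic proteins, fell by 2.24 ± 0.62 (0.05), with all 5 probe sets lower, and by 1.72 (0.145) without replicate 4. Plxnb2, a semaphorin receptor, fell by 2.45 ± 0.56 (0.0256), the kinase Hipk1 by 2.21 ± 0.50 (0.0233), the ribonuclease inhibitor Rnh1 by 2.60 ± 0.71 (0.0478) and Bok of the Bcl-2 family by 2.23 ± 0.60 (0.0472). The last 4 missed the threshold without replicate 4 (0.077, 0.0635, 0.111 and 0.13).

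**Figure D5:**
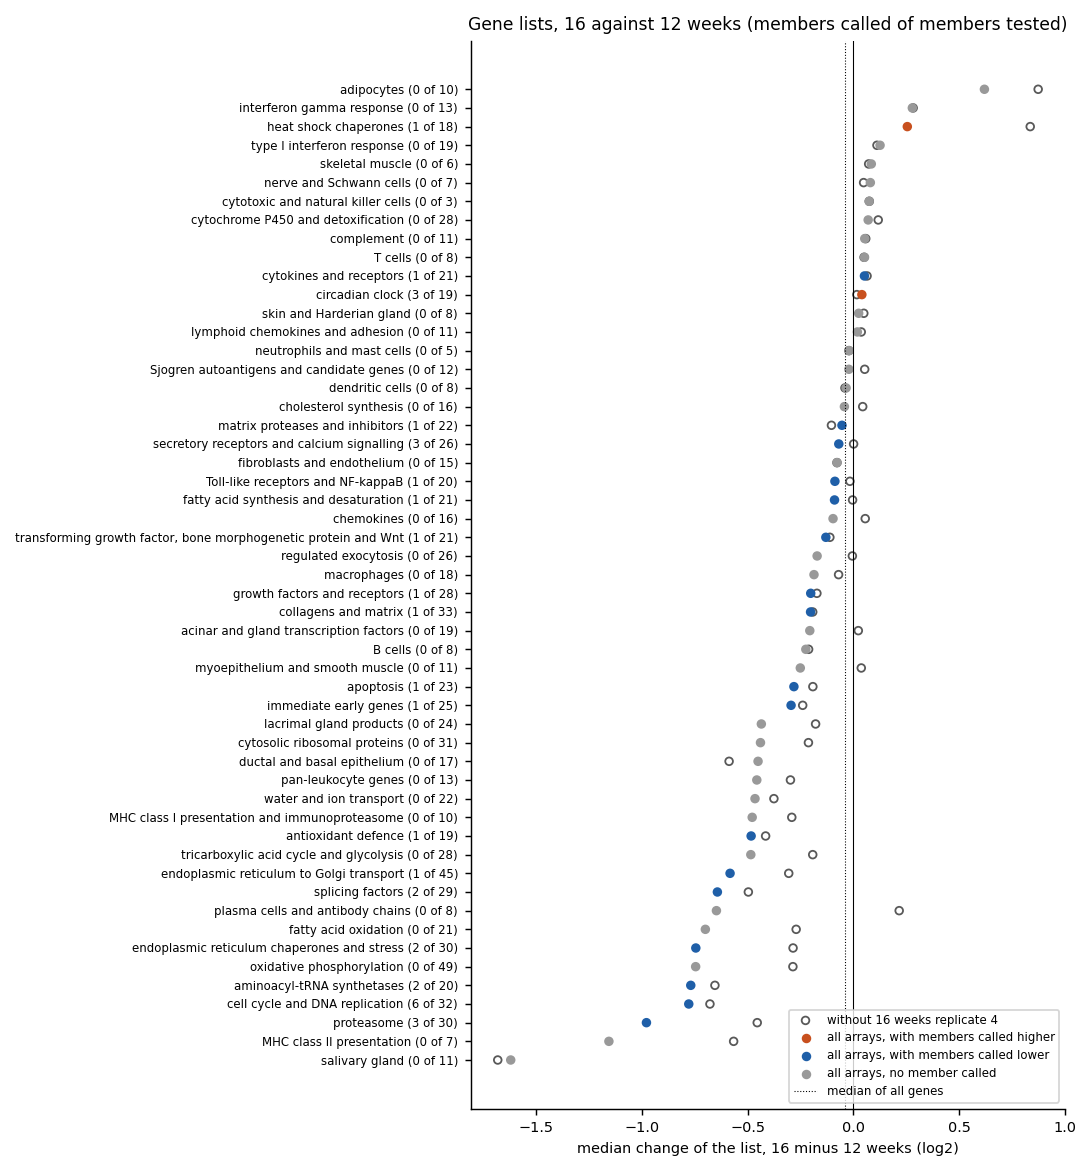
Median change of each gene list, 16 minus 12 weeks (log2, x axis), for 53 lists down the page with the members called and tested in brackets. Filled points use all arrays, orange where called members were higher at 16 weeks, blue where lower and grey with none, and open circles leave out 16 weeks replicate 4. The cell cycle list has 6 of 32 members called at a median of -0.78, and the median of the plasma cell list moves from -0.65 to 0.22 without that array.

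Markers of neighbouring tissues had large changes that did not pass. The salivary gland list had a median of -1.62 with 10 of 11 genes negative, and -1.68 without 16 weeks replicate 4. Salivary amylase Amy1 was between 3.42 and 14.72 (median 7.33) at 16 weeks and between 6.90 and 15.73 (median 12.70) at 12 weeks. Its change of -4.04 ± 2.35 had an adjusted p of 0.319, and paralogs of amylase can share its probes. Bpifa2 (parotid secretory protein), Smr3a and Dcpp3 changed by -3.31, -3.44 and -4.07 (adjusted p = 0.279, 0.284 and 0.29). On 16 weeks replicate 2 these were at 14.89, 13.88 and 10.33, and on replicate 5 at 5.06, 4.95 and 2.21. The adipocyte list had a median of 0.62, and 0.87 without replicate 4, with no call. Fabp4, the fatty acid carrier of adipocytes and likewise chosen after its values were seen, was at 11.63, 11.64, 6.72, 5.82 and 5.67 at 16 weeks and between 5.29 and 10.84 (median 6.71) at 12 weeks, and the fatty acid transporter Cd36 changed by 1.16 ± 0.44 (adjusted p = 0.137). The part of either tissue in the called changes was not tested beyond the fit with both means as covariates given above.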

How the data were processed

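Total RNA of lacrimal glands was hybridised to 1-colour Affymetrix arrays, and the authors deposited normalized log2 values for 45101 probe sets on 26 arrays. RMA and GCRMA are named per the submitters' processing notes, but their roles and versions are not given in the sources used here. Scanner intensities were not used here. Groups and replicate numbers came from the titles, which call the replicates biological and do not say whether 1 is an animal or a pool. Of the probe sets, 34958 named 1 gene symbol, 932 several and 9211 none. Each of 18193 genes was read by the probe set, among those naming it alone, whose mean was highest, and 12376 genes above the array median on at least 4 arrays were kept. limma 3.58.1 (R 4.3.3) fitted a mean per age to all 26 arrays, and the change of 16 minus 12 weeks was tested with lmFit and eBayes and Benjamini-Hochberg adjustment over all genes kept, at 0.05. The fit was also run on simulated data. Noise there was drawn separately for each gene and array, so shifts shared by many genes on 1 array were not simulated. Named genes were the 20 largest called changes each way, the called members of 53 gene lists with up to 6 further members of each by p, and a few candidate genes. The members and lists were chosen with earlier results of these data known. The number of arrays limits the precision.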

Additional observations from a re-analysis of the deposited data

Results flagged for a closer look

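A lone array was looked for in 224 groups of values, an age of a named gene or of an array measure, and 28 had a highest or lowest array whose gap to the nearest other passed the critical value of Dixon's test. Chance gives about 1 in 20 groups where groups are independent. These groups share the same 11 arrays, so the count of 28 cannot be tested against that rate. Of the 28, 14 fell on 16 weeks replicate 4. On 16 weeks replicate 4 Mcm2 was at 5.14 with the others of its age at 5.67 to 5.81. Timmdc1 was at 5.08 with the others of its age at 6.82 to 7.23. Rnh1 was at 2.82 with the others of its age at 6.71 to 8.21. Acss1 was at 4.65 with the others of its age at 8.65 to 9.31. Eif5b was at 4.04 with the others of its age at 7.20 to 7.93. Tars was at 4.37 with the others of its age at 6.86 to 7.09. Dnajb11 was at 4.55 with the others of its age at 6.28 to 6.86. Calr was at 8.51 with the others of its age at 12.61 to 12.87. Adcy6 was at 4.07 with the others of its age at 5.43 to 5.57. Itpr3 was at 2.32 with the others of its age at 6.32 to 7.02. Gnas was at 6.99 with the others of its age at 10.34 to 11.26. Aqp5 was at 4.90 with the others of its age at 10.59 to 11.12. Bhlha15 was at 6.08 with the others of its age at 11.40 to 11.70. The mean of the skin and Harderian gland list was at 3.70 with the others of its age at 4.76 to 4.93. On 16 weeks replicate 2 Cdk1 was at 3.65 with the others of its age at 2.79 to 3.03. Cdca8 was at 3.60 with the others of its age at 2.75 to 2.97. Trim21 was at 4.32 with the others of its age at 3.28 to 3.42. On 16 weeks replicate 3 Fn1 was at 3.74 with the others of its age at 4.66 to 4.68. On 12 weeks replicate 1 Slc6a14 was at 3.95 with the others of its age at 5.25 to 6.03. Slc35b2 was at 7.30 with the others of its age at 8.77 to 9.44. Ddost was at 6.64 with the others of its age at 9.28 to 9.80. Gna11 was at 7.20 with the others of its age at 7.72 to 7.92. Aqp5 was at 10.92 with the others of its age at 11.26 to 11.42. Tgfbr3 was at 3.50 with the others of its age at 5.18 to 6.02. Prdx3 was at 7.55 with the others of its age at 9.30 to 9.83. On 12 weeks replicate 2 Mcm2 was at 6.02 with the others of its age at 6.55 to 6.87. Trim21 was at 2.37 with the others of its age at 3.34 to 3.93. On 12 weeks replicate 5 Gsdme was at 4.91 with the others of its age at 3.31 to 3.74.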

How the results depend on the processing

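The number of called genes, 369 in the reported fit, moved with the processing, while no change turned its sign from one call to the opposite call. It was 201 without a filter on low genes, 2796 with array weights (fitting of the weights did not fully converge), 872 without 20 weeks replicate 1, 756 with array spread as a covariate, 116 with the actin difference and 4 with the adipocyte and salivary gland means as covariates. Without 1 of the 11 arrays it lay between 68 (without 12 weeks replicate 4) and 886 (without 12 weeks replicate 1), with 94, 350, 82, 123 and 177 without 16 weeks replicates 1 to 5 and 517, 100, 110 and 170 without 12 weeks replicates 2, 3, 5 and 6. With the replicate block it was 228. Same-numbered arrays of the ages did not pair, with correlations of their deviations of 0.103, -0.299, 0.0762, -0.0795 and -0.00258 for numbers 1 to 5, and only number 1 correlated best with its own number. Other settings gave 277 to 512 calls, among them 512 after quantile normalization, 211 of them among the 369, 321 on only the 11 arrays, 159 of them shared, and 501 without the 2 arrays of low spread, an alternative chosen after seeing the data. In the cytotoxic and natural killer list no gene passed the 75th percentile filter, so that setting gave no value for it. Limits are the 11 arrays, probe sets of a gene that disagree, levels near background, and covariates that were measured on the same arrays.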
